A study of Mus musculus with 16 samples.

Results

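Platelet-derived growth factors (PDGFs) and their receptors were followed in mouse embryo fibroblasts (MEFs) with different states of Arkadia, before and during treatment with TGFβ. The genes were chosen by name: the ligand genes Pdgfa and Pdgfb and the receptor genes Pdgfra and Pdgfrb. Of these 4 genes, 3 had FPKM values (Pdgfa, RefSeq NM_008808; Pdgfb, NM_011057; Pdgfrb, NM_008809, named as transcript variant 2) among the 12100 genes of the table, and Pdgfra was not analysed here. FPKM divides a gene's sequenced fragments by its transcript length and by the library's mapped total, so it is a level per length that can be set side by side for different genes.

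Arkadia, the product of Rnf111, is a ubiquitin ligase that acts in TGFβ signalling. The 16 libraries came from 4 lines of MEFs, which are fibroblast cultures grown from embryos. WT cells (Ark+/+) and null cells (Ark-/-) were sampled untreated (0 h) and after 1, 4 and 16 h of TGFβ at 2.5 ng/ml, and these 8 libraries carry names of a set A. Null cells that had received Arkadia by retrovirus, either wild-type (rvCAG-ArkWT, here rvWT) or with the sim mutation (rvCAG-Arksim, here sim), were sampled at 0, 1 and 4 h. Null cells were sampled again at 0 and 1 h, and these 8 libraries form a set B. Both retroviral lines thus share the Ark-/- background, a control line with an empty retrovirus was not analysed here, and the labels do not say how many clones or cultures stand behind a line. With 1 library per line, set and time, the times of a line served as repeated measurements. The submitters describe the samples as independent, without saying whether they came from separate cultures. The p-values reflect how far line differences varied over the times, or responses varied over the series, a spread that may in part be technical. They do not measure spread between repeat libraries of the same line, set and time.

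PDGF ligands are secreted dimers of A and B chains that bind the receptor tyrosine kinases PDGFRα and PDGFRβ. The A chain acts mainly through PDGFRα, while the B chain binds both receptors. The ligands are mitogens and chemoattractants for fibroblasts and other mesenchymal cells, and PDGF-B with PDGFRβ recruits pericytes and smooth muscle cells to vessels. TGFβ is known to raise the production of PDGF chains in fibroblasts and endothelial cells.

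Of the 3 genes with values, 1 (Pdgfa) matched the RefSeq promoter table, with 2 entries. Only the entry whose window holds the GENCODE transcript start named below was searched. The stretch below is shown because Pdgfa rose in every series, and it lies at chr5:138995015-138995194 of GRCm38.p6 on the minus strand. It is written in the direction of transcription. The first 157 bases precede the start of the GENCODE transcript paired with NM_008808, the last 23 lie inside its first exon, and all 180 lie upstream of the RefSeq start.

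Pdgfa: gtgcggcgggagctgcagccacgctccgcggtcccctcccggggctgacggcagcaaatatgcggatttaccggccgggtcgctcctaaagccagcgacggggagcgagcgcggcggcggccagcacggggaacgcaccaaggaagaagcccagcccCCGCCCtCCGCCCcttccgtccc

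Capitals mark 2 GC boxes (GGGCGG, here on the opposite strand), the motif of Sp1 and KLF factors. They begin 93 and 86 bases upstream of the RefSeq start. Both lie within the last 23 bases of the stretch, inside the first exon of the GENCODE transcript. The 157 bases before the start of that transcript held no match to the motifs searched. GGGCGG on either strand was present in 35.7% of the 32851 promoter windows of 300 bases in the table. The Pdgfa window was rich in G and C (73.3%), above 94.5% of these windows. It held no match to the SMAD-binding letters CAGAC (in 49.6% of windows), to the AP-1 motif TGANTCA (7.81%) or to the TATA box TATAAA (13.6%), all searched on both strands. These letters describe this window alone and do not locate a binding site.

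The labels were first checked against Rnf111 and the cell type markers. Rnf111 stood at 14.5 to 15.1 FPKM in WT, 0.121 to 0.526 in the 6 null libraries, 102.5 to 125.8 in rvWT and 56.0 to 62.1 in sim, so both retroviral lines exceeded WT. All 8 fibroblast and mesenchyme markers had values, and their summed level was 1809 to 2314 FPKM in WT, 5449 to 5979 in null, 7138 to 7874 in rvWT and 6490 to 6763 in sim. The endothelial markers Tek and Kdr summed to 0.248 to 0.953 FPKM in WT and at most 10.8 in any null library. Of 7 pericyte markers 4 had values, and they went different ways: Cspg4 was at 2.34 to 4.17 FPKM in WT and 0.0523 to 0.638 in null, Notch3 at 0.751 to 1.06 in WT and 1.54 to 4.52 in null, Mcam at 20.7 to 33.8 in WT and 3.94 to 50.1 in null, and Des at 1.05 to 1.78 over all lines. Of 5 epithelial markers 3 had values, and Krt19 alone took 267.5 to 519.0 FPKM in WT against at most 4.91 in null. The other two went the opposite way, with Krt8 at 0.586 to 1.17 FPKM in WT and 2.47 to 12.7 in null, and Krt18 at 0.431 to 1.08 in WT and 1.21 to 2.18 in null.

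The 3 genes were well expressed. Their mean over the 16 libraries was 26.3 FPKM for Pdgfa, 28.5 for Pdgfb and 24.3 for Pdgfrb, which placed them at the 75.7th, 77.4th and 73.7th percentile of the gene means. They differed in where their variation lay. On the log2(FPKM + 1) scale 86.2% of the variance of Pdgfb lay within the series, that is, between times of TGFβ, and 13.8% between the 5 series (WT, rvWT, sim and the null line once in each set). For Pdgfrb 87.9% lay between the series and 12.1% within. Pdgfa was intermediate, with 60.0% between and 40.0% within.

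**Figure D1:**
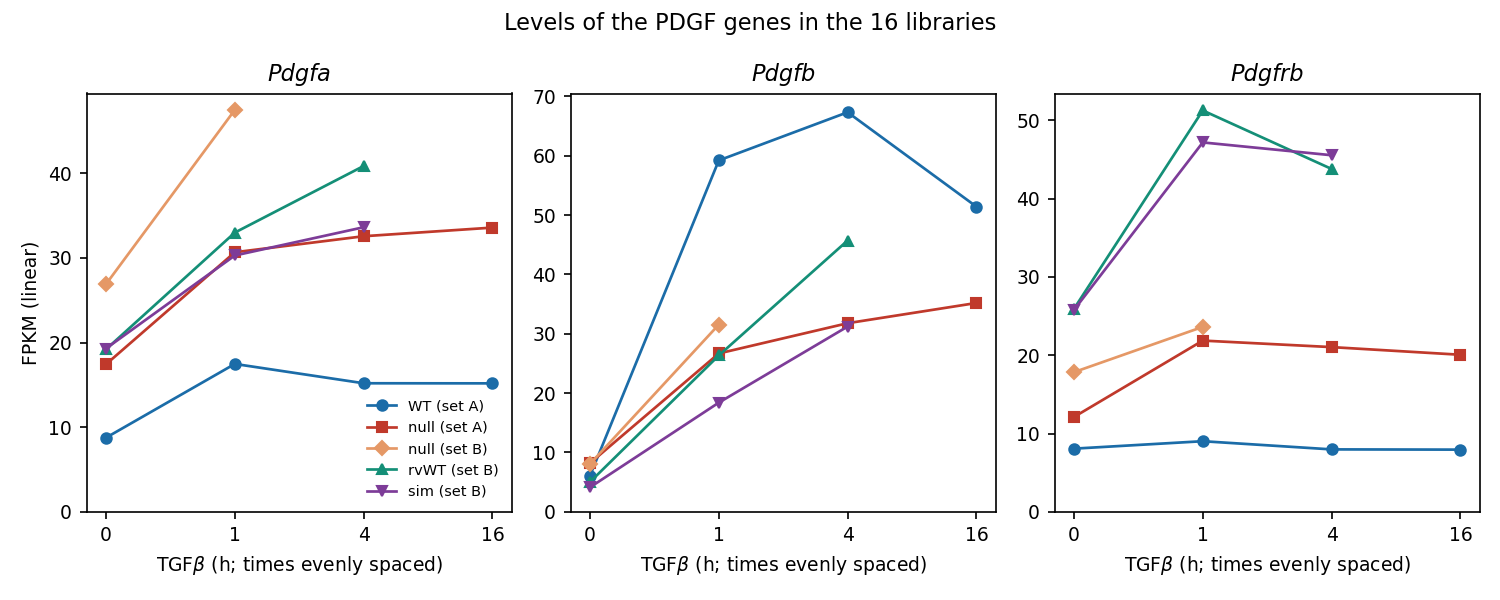
Levels of Pdgfa, Pdgfb and Pdgfrb in FPKM (linear axis) in each of the 16 libraries against hours of TGFβ, with times evenly spaced and 1 line per series; each point is 1 library and there are no error bars. Pdgfb climbs from 4.13 to 8.20 FPKM at 0 h to 18.4 or more in every treated library, while Pdgfrb is lowest in WT, intermediate in null and highest in rvWT and sim, which lie close together, at each time they share.

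Both ligand genes rose within 1 h of TGFβ and stayed up through 4 and 16 h. Pdgfb, the B chain, was the more responsive. In WT it stood at 6.07 FPKM at 0 h and at 59.2, 67.3 and 51.4 FPKM at 1, 4 and 16 h. In null cells of set A it stood at 8.20 FPKM at 0 h and at 26.7, 31.8 and 35.2 FPKM at the same times. Each treated library of these 2 series was at least 3.25-fold above its own 0 h library, with 11.1-fold the highest value (WT at 4 h). In rvWT Pdgfb rose from 5.02 to 26.3 FPKM at 1 h and 45.7 at 4 h. In sim it rose from 4.13 to 18.4 and 31.2 FPKM, and in null cells of set B from 8.06 to 31.5 FPKM at 1 h. The 5 untreated libraries reached 8.20 FPKM at most and the 11 treated ones began at 18.4 FPKM. The share of all genes separated in this way was not counted.

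Fitted over all 16 libraries with the series as a block, the log2 difference of Pdgfb was 2.13 ± 0.19 (SE) at 1 h, 2.64 ± 0.21 at 4 h and 2.39 ± 0.27 at 16 h against 0 h. The limma adjusted p was 0.000112, 4.39e-05 and 0.000338. The 16 h value rests on 1 WT and 1 null library. Differences here are on the log2(FPKM + 1) scale, which understates the change of genes with low values.

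Pdgfa, the A chain, rose by a smaller and more even factor. In WT it went from 8.76 FPKM at 0 h to 17.5, 15.2 and 15.2 FPKM at 1, 4 and 16 h. In null cells of set A it went from 17.4 to 30.7, 32.6 and 33.6 FPKM. In rvWT the levels were 19.2, 33.0 and 40.9 FPKM at 0, 1 and 4 h, and in sim 19.3, 30.3 and 33.6 FPKM. In null cells of set B Pdgfa was at 26.9 FPKM at 0 h and 47.5 FPKM at 1 h. All 11 treated libraries lay above their own 0 h library, by 1.57-fold to 2.13-fold, but across lines treated libraries (from 15.2 FPKM) overlapped untreated ones (to 26.9 FPKM). The log2 difference was 0.77 ± 0.06 (SE) at 1 h, 0.86 ± 0.07 at 4 h and 0.81 ± 0.09 at 16 h, with limma adjusted p of 6.60e-05, 4.93e-05 and 0.000315.

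Pdgfrb, the receptor for the B chain, rose with TGFβ as well, though unevenly between series. In null cells of set A it stood at 12.1 FPKM at 0 h and at 21.9, 21.0 and 20.1 FPKM at 1, 4 and 16 h. In rvWT it stood at 25.9, 51.2 and 43.8 FPKM at 0, 1 and 4 h, and in sim at 25.8, 47.2 and 45.5 FPKM. In null cells of set B it was at 17.8 FPKM at 0 h and 23.6 FPKM at 1 h. In WT it read 8.07, 9.02, 7.97 and 7.94 FPKM at 0, 1, 4 and 16 h. The 8 treated libraries outside WT were thus 1.32-fold to 1.98-fold above their 0 h library, and the 3 in WT were 0.984-fold to 1.12-fold.

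Over all series the log2 difference of Pdgfrb was 0.63 ± 0.12 (SE) at 1 h (limma adjusted p = 0.0103) and 0.54 ± 0.13 at 4 h (adjusted p = 0.0102). At 16 h it was 0.44 ± 0.17 and did not pass (adjusted p = 0.0924), and without the WT 0 h library it was 0.64 and passed (adjusted p = 0.00542). All 3 genes were therefore higher at 1 h and at 4 h, and 2 of 3 at 16 h. Among all 11045 genes tested 3.95% were higher and 2.01% lower at 1 h, 11.9% higher and 27.1% lower at 4 h, and 6.84% higher and 12.5% lower at 16 h. With the 8 libraries of set A alone the values at 1 and 4 h kept their sign but none passed (Pdgfb 2.34 and 2.55, adjusted p = 0.192 and 0.0825).

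The later steps were tested in the same way. From 1 to 4 h the log2 difference was 0.52 ± 0.21 (SE) for Pdgfb (limma adjusted p = 0.0984), 0.08 ± 0.07 for Pdgfa (0.413) and -0.09 ± 0.13 for Pdgfrb (0.638). Between 1 and 4 h 22.2% of all genes were called, and 0 of the 3, with 1 (Pdgfb) at an unadjusted p under 0.05. Shares of all genes in this text are at the adjusted threshold. No share is given for the unadjusted one, so counts at it have no background beside them. Pdgfb did pass from 1 to 4 h with set B alone (0.79, limma adjusted p = 0.00690), without the WT 0 h library (0.49, 0.0493), without WT 1 h (0.69, 0.0332) and without null 4 h (0.69, 0.0398), while with set A alone it was 0.21 (0.835). From 4 to 16 h, where 1.87% of genes were called, the differences were -0.25 ± 0.28, -0.04 ± 0.09 and -0.10 ± 0.17 for Pdgfb, Pdgfa and Pdgfrb. By limma 0 of the 3 passed there, and 0 had an unadjusted p under 0.05.

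**Figure D2:**
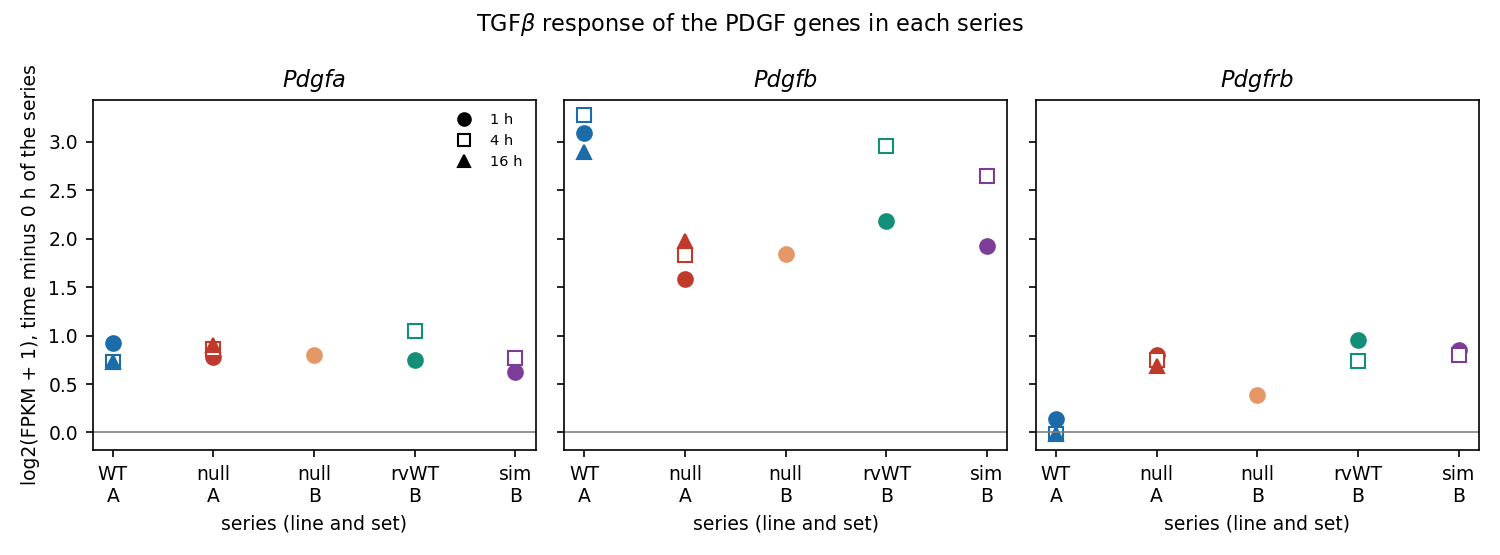
Response to TGFβ in each series as the difference in log2(FPKM + 1) from the 0 h library of that series, with circles for 1 h, open squares for 4 h and triangles for 16 h; each point is 1 library against 1. Pdgfa responses lie between 0.62 and 1.05 in every series, Pdgfb responses are 2.89 to 3.27 in WT and 1.59 to 1.98 in null of set A, and Pdgfrb lies at -0.02 to 0.14 in WT and 0.39 to 0.96 elsewhere.

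Whether the response differed by line was tested with terms of time by line status. In the WT series against the other 4 series, which all derive from the null line, the response of Pdgfrb was lower by 0.60 ± 0.20 (SE) on the log2 scale at 1 h. The 95% interval of that difference ran from -1.06 to -0.15. At 4 h the difference was -0.72 ± 0.20 and at 16 h -0.67 ± 0.23. None passed after adjustment over all genes (limma adjusted p = 0.868, 0.265 and 0.173 at 1, 4 and 16 h), and at 4 h the adjusted p ran from 0.0811 to 1 over the alternatives.

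For Pdgfb the response in WT was higher by 1.21 ± 0.35 (SE) at 1 h, 0.80 ± 0.36 at 4 h and 0.60 ± 0.41 at 16 h, with limma adjusted p of 0.657, 0.551 and 0.504. Leaving out null of set A at 0 h took the 16 h value to 0.27. For Pdgfa the differences were 0.18 ± 0.12, -0.17 ± 0.12 and -0.18 ± 0.14. So 0 of the 3 genes passed at any time, beside 0.0453%, 0.398% and 3.86% of all genes at 1, 4 and 16 h. At an unadjusted p under 0.05 there were 2 genes at 1 h (Pdgfb and Pdgfrb) and 1 each at 4 and 16 h (Pdgfrb). The shares above are at the adjusted threshold, and none is given for the unadjusted one. A fit chosen after seeing the data, with a single WT term shared by the 3 treated times, gave -0.66 ± 0.15 for Pdgfrb (limma adjusted p = 0.406) and 0.92 ± 0.30 for Pdgfb (0.832), with 0.0272% of genes called. The WT series is 1 time course, so these differences have no repeat of the line.

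With Arkadia status in place of line (WT, rvWT and sim against null), the response of Pdgfb was higher in the Arkadia-carrying series by 0.68 ± 0.31 (SE) at 1 h, 1.06 ± 0.37 at 4 h and 0.52 ± 0.44 at 16 h. The limma adjusted p was 0.999, 0.385 and 0.623, and the interval at 4 h ran from 0.19 to 1.94. Without the WT 0 h library the values at 1 and 16 h were 0.43 and 0.10. The 1 h value was 0.41 without WT 1 h, and the 16 h value was 0.32 without null of set A at 0 h and 0.34 with a pseudocount of 5. At 4 h Pdgfb reached 11.1-fold of its 0 h level in WT, 9.10-fold in rvWT, 7.57-fold in sim and 3.88-fold in null of set A, the sole null library at 4 h. For Pdgfa and Pdgfrb the differences by Arkadia status lay between -0.26 and 0.05 at the 3 times. Again 0 of the 3 genes passed, beside 0.00905%, 0.0362% and 1.62% of all genes. At an unadjusted p under 0.05, for which no share of all genes is given, there was 1 (Pdgfb at 4 h).

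Levels were then compared between lines, first WT against null in set A with time as a block. Pdgfa was lower in WT at every time, at 8.76 against 17.4 FPKM at 0 h, 17.5 against 30.7 at 1 h, 15.2 against 32.6 at 4 h and 15.2 against 33.6 at 16 h. Null was thus 1.75-fold to 2.21-fold above WT, a log2 difference of -0.96 ± 0.07 (SE, WT minus null, limma adjusted p = 0.000225). Pdgfrb was lower in WT too, with a mean of 8.25 ± 0.514 FPKM in WT and 18.8 ± 4.50 in null of set A (SD, n = 4 times each). Its log2 difference was -1.06 ± 0.14 (SE, adjusted p = 0.00159), and null exceeded WT by 1.5-fold at 0 h and by 2.42-fold to 2.64-fold after TGFβ.

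Pdgfb changed order with treatment. At 0 h WT (6.07 FPKM) lay below null (8.20 FPKM), and after 1, 4 and 16 h WT was 2.22-fold, 2.12-fold and 1.46-fold above null. Its log2 difference over the 4 times was 0.58 ± 0.26 (SE, limma adjusted p = 0.0999) and did not pass. Without the WT 0 h or the null 0 h library it was 0.90 and passed (adjusted p = 0.00703 and 0.00705). Of the 3 genes 2 were lower in WT and 0 higher, beside 30.1% of 10976 genes lower and 37.4% higher, so calls were common in this comparison. The fibroblast marker sum was lower in WT, though unevenly over its genes, and Krt19 was higher in WT. Their part in these differences was not tested. In bulk RNA, fewer cells of a type and less RNA per cell cannot be told apart.

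For the retroviral lines the reference was the null line of set B, again with time as a block. In these comparisons Arkadia and infection cannot be told apart, and both lines share the same 2 null libraries. Pdgfrb was higher in both lines. At 0 h it stood at 25.9 FPKM in rvWT and 25.8 in sim against 17.8 in null, and at 1 h at 51.2 and 47.2 against 23.6 FPKM. The log2 difference was 0.78 ± 0.14 (SE) in rvWT (limma adjusted p = 0.00904) and 0.76 ± 0.14 in sim (0.0111). In sim it was 0.72 and just missed the threshold without the sim 1 h library (adjusted p = 0.05004), and it was 0.50, and passed, without the null 1 h library.

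Both ligand genes were lower in the retroviral lines than in null of set B. Pdgfa read 19.2 FPKM in rvWT and 19.3 in sim against 26.9 in null at 0 h, and 33.0 and 30.3 against 47.5 at 1 h. Its log2 difference was -0.45 ± 0.08 (SE) in rvWT (limma adjusted p = 0.00847) and -0.58 ± 0.08 in sim (0.00417). For rvWT the call was lost without the null 0 h library (-0.51, adjusted p = 0.0501) or the null 1 h library (-0.40, 0.0827). Null cells of set A read 17.4 FPKM at 0 h and 30.7 at 1 h, so the same line was 1.54-fold and 1.55-fold higher in set B, while null of set B exceeded rvWT by 1.40-fold and 1.44-fold.

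Pdgfb read 5.02 FPKM in rvWT and 4.13 in sim against 8.06 in null of set B at 0 h, and 26.3 and 18.4 against 31.5 at 1 h. Its log2 difference was -0.81 ± 0.10 (SE) in sim (limma adjusted p = 0.00287) and -0.39 ± 0.10 in rvWT (0.0274). The rvWT call was lost without null 0 h (-0.29), null 1 h (-0.50), rvWT 0 h (-0.26), rvWT 1 h (-0.46) or sim 1 h (-0.39). In each line 1 of the 3 genes was higher and 2 lower, beside 16% higher and 22.6% lower of 10958 genes in rvWT, and 13.9% higher and 20.8% lower in sim.

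Between rvWT and sim, which carry wild-type Arkadia and its sim mutant, none of the 3 genes passed. Pdgfb was higher in rvWT at every time, by 1.22-fold at 0 h, 1.43-fold at 1 h and 1.46-fold at 4 h. Its log2 difference was 0.42 ± 0.08 (SE), with a 95% interval from 0.21 to 0.63 and a limma adjusted p of 0.124. Pdgfa differed by 0.13 ± 0.07 (interval -0.04 to 0.30, adjusted p = 0.388). Pdgfrb differed by 0.02 ± 0.12 (interval -0.27 to 0.32, adjusted p = 0.940), a value whose sign turned without the rvWT 1 h library (-0.08) or the sim 0 h library (-0.04). Here 0.493% of all genes were called. At an unadjusted p under 0.05, for which no share of all genes is given, there was 1 of the 3 (Pdgfb).

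Ordered by its level at 0 h, Pdgfrb ran from WT (8.07 FPKM) through null of set A (12.1) and null of set B (17.8) to sim (25.8) and rvWT (25.9). Sim and rvWT did not differ beyond their spread over the 3 times, and the 2 null libraries, of the same line, differed by 1.47-fold. Pdgfb at 0 h ran from sim (4.13) and rvWT (5.02) through WT (6.07) to null of set B (8.06) and of set A (8.20). Pdgfa at 0 h ran from WT (8.76) through null of set A (17.4), rvWT (19.2) and sim (19.3) to null of set B (26.9). Each of these levels is a single library. WT levels were compared with set B by no test, since set B holds no WT library. Only responses to TGFβ were tested over both sets.

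The ratio of Pdgfb to Pdgfrb mRNA, which compares levels per length within a library, was higher in the treated WT libraries than in any other library. Pdgfb mRNA was at 0.752 times the level of Pdgfrb in untreated WT cells, and at 6.57, 8.44 and 6.47 times at 1, 4 and 16 h. In null of set A the ratio was 0.677 at 0 h and 1.22, 1.51 and 1.75 at 1, 4 and 16 h. In rvWT it was 0.194, 0.514 and 1.04 at 0, 1 and 4 h, and in sim 0.160, 0.390 and 0.686. In null of set B it was 0.452 at 0 h and 1.34 at 1 h. The ratio of Pdgfb to Pdgfa passed from 0.693 at 0 h to 3.39, 4.43 and 3.39 in WT, and lay between 0.214 and 1.12 in all libraries of the other lines. The ratio of Pdgfa to Pdgfrb did not set WT apart: it was 1.91 to 1.94 in treated WT, 2.01 in null of set B at 1 h, 1.40 to 1.67 in treated null of set A, and 0.642 to 0.933 in treated rvWT and sim. These ratios describe mRNA and were not tested.

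**Figure D3:**
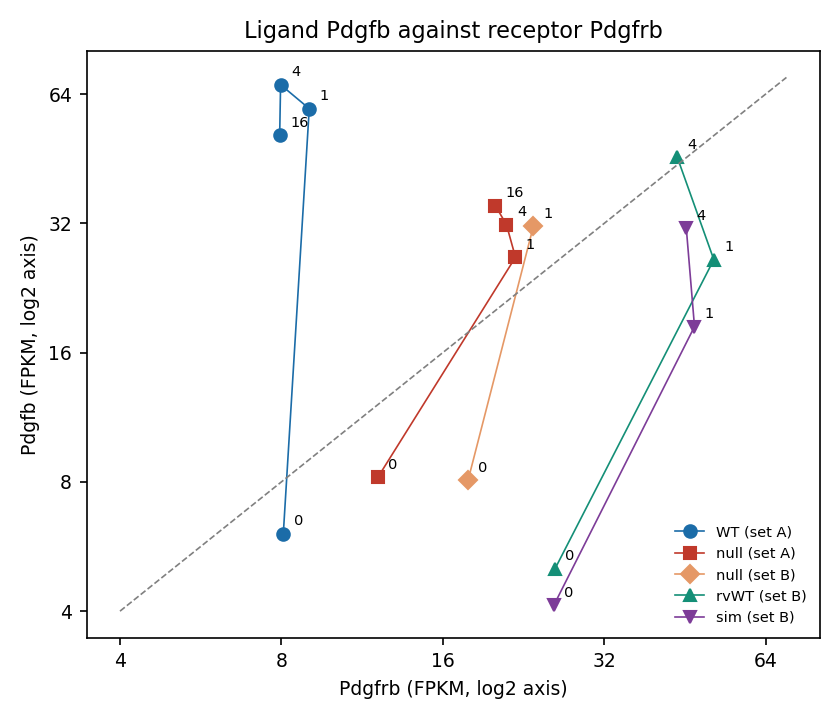
Pdgfb against Pdgfrb in FPKM on log2 axes; each point is 1 library labelled with its hours of TGFβ, lines join the times of a series, and the dashed line marks equal levels. WT moves straight up at about 8 to 9 FPKM of Pdgfrb, while the other series move up and to the right, and the 3 treated WT libraries lie farthest above the dashed line.

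The genes whose levels were most like each member were listed among 8286 genes with a mean of at least 5 FPKM, by Pearson correlation over the 16 libraries, which share lines and times and are not independent. For Pdgfa they were Ubtd1 (r = 0.945), Efhd2 (0.923) and Furin (0.922). For Pdgfb they were the transcriptional repressor Bhlhe40 (0.957), the kinase Nuak2 (0.953) and Cttnbp2nl (0.935). For Pdgfrb they were Kctd15 (0.972), the endoplasmic reticulum stress protein Herpud1 (0.961) and the matricellular protein Wisp2 (0.955). Wisp2 stood at 5.24 to 8.04 FPKM in WT, 10.2 to 48.9 in the 6 null libraries and 79.9 to 180.5 in rvWT and sim.

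With the series means removed, Pdgfa was most like Bhlhe40 (r = 0.981), the ubiquitin ligase Rnf19b (0.980) and Pdgfb itself (0.968). Pdgfb was most like Ubtd1 (0.979), the p53 regulator Ppp1r13l (0.977) and Rnf19b (0.976). Bhlhe40 went from 30.6 FPKM to 127.5 at 1 h in WT and from 17.1 to 71.5 in null of set A. The 2 ligand genes thus moved in parallel over time. Their levels over the 16 libraries, which mix lines and times, had r = 0.323. Pdgfb and Pdgfrb had r = -0.074 by level and 0.744 with the series means removed, and Pdgfa and Pdgfrb had 0.759 and 0.828.

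The rest of the pathway was described with 6 lists, by counts and medians alone. Of 7 other ligands of the PDGF and VEGF families 6 had values. At 4 h 3 of them rose, led by Pdgfc (log2 difference 0.63 ± 0.07 SE) and Vegfa (1.39 ± 0.27), and the placental growth factor Pgf rose too (0.51 ± 0.16), while Figf, which encodes VEGF-D, fell by 1.07 ± 0.23. The limma adjusted p of these 4 was 0.00014, 0.00359, 0.0323 and 0.00535. Over all genes 11.9% were higher and 27.1% lower at 4 h. Pdgfc encodes a ligand of PDGFRα that needs proteolytic activation. In WT it read 3.56, 3.90, 6.54 and 10.1 FPKM at 0, 1, 4 and 16 h, and in null of set A 8.89, 8.83, 16.2 and 23.7 FPKM. Its log2 difference was 0.05 ± 0.06 (SE) from 0 to 1 h (limma adjusted p = 0.700) and 0.58 ± 0.07 from 1 to 4 h (0.000408).

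Between WT and null 3 of these 6 ligands were lower in WT and 0 higher, beside 30.1% and 37.4% of all genes. Figf read 0.754 to 1.92 FPKM in WT and 14.4 to 61.8 in null of set A (log2 difference -4.04 ± 0.25 SE, limma adjusted p = 0.000153). Pdgfc (-1.11 ± 0.06) and Vegfb (-0.32 ± 0.11) were lower as well, and Vegfa (-0.44 ± 0.19) did not pass. The list's median was -0.38 beside 0.07 for all genes.

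Of 6 genes of ligand processing all had values. Furin, the convertase that cleaves the A and B chain precursors, rose by 0.68 ± 0.09 (SE) at 1 h and 0.98 ± 0.10 at 4 h on the log2 scale (limma adjusted p = 0.00114 and 0.000103), and went from 12.3 to 25.6 FPKM in WT and from 23.3 to 48.2 in null of set A at 4 h. At 4 h 2 of the 6 rose (Furin and the urokinase gene Plau, 0.20) and 2 fell (Pcsk5, -0.41, and Plat, -0.38, the activator of PDGF-C). Over all genes 11.9% were higher and 27.1% lower at 4 h. Between WT and null 5 of 6 were lower in WT and 0 higher, with Plau at -1.94, Pcsk5 at -1.57, Pcsk6 at -1.11 and Furin at -0.85. The list's median was -0.98, and 30.1% of all genes were lower and 37.4% higher. In rvWT 4 and in sim 5 of the 6 were lower than in null and 0 higher, beside 22.6% and 20.8% of all genes lower.

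Co-receptors and binding proteins (8 of 8 with values) rose with time in 5 cases at 4 h and 6 at 16 h, and none fell, beside 11.9% and 6.84% of all genes higher. The list's median was 0.45 at 4 h and 0.56 at 16 h. The integrin subunit gene Itgb3 was higher by 1.23 ± 0.08 (SE) at 4 h, Pdgfrl by 0.65 ± 0.05, Itgav by 0.47 ± 0.07 and Lrp1, which binds PDGFRβ, by 0.42 ± 0.07. Their limma adjusted p was 1.32e-05, 4.39e-05, 0.0009 and 0.00141. Between WT and null 3 were higher in WT, namely Itgb3 (1.96), the NG2 proteoglycan gene Cspg4 (1.75) and Pdgfrl (1.08), and 2 were lower, the neuropilins Nrp2 (-2.04) and Nrp1 (-0.37), with a median of 0.09 beside 0.07 for all genes. Over all genes 37.4% were higher and 30.1% lower in WT. In both rvWT and sim 5 of 8 were higher than in null and 0 lower, beside 16% and 13.9% of all genes higher.

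Of the adaptors and kinases of receptor signalling (21 of 21 with values) 3 rose, 2 fell and 16 did not pass at 4 h. Over all genes 11.9% were higher and 27.1% lower at that time. The list's median was -0.00 beside -0.08 for all genes. The phosphoinositide 3-kinase subunit Pik3r1 fell by 0.88 ± 0.12 (SE) at 4 h (limma adjusted p = 0.000578), and the adaptor Shb (0.37), the Ras inhibitor Rasa1 (0.27) and Crkl (-0.18) changed by less. In WT 10 were higher and 6 lower than in null, near the shares over all genes (37.4% higher and 30.1% lower). The smallest p-values were those of the imprinted adaptor Grb10 (2.37 ± 0.05 SE, adjusted p = 1.81e-05), the phospholipase Plcg1 (0.77), Grb2 (0.59) and Src (0.44). Grb10 read 92.5 to 113.4 FPKM in WT and 17.2 to 22.0 in null of set A.

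Of 6 phosphatases and ubiquitin ligases that act on receptors, 4 were higher in WT than in null (Cblb, 0.74, Cbl, 0.65, Ptpn1, 0.61, and Ptpn2, 0.44) and 2 lower (Ptprj, -0.31, and Ptpn12, -0.13), in a comparison where 37.4% of all genes were higher and 30.1% lower. By limma 0 of the 6 passed at 4 h, beside 11.9% of all genes higher and 27.1% lower. At an unadjusted p under 0.05, for which no share of all genes is given, there was 1. At 1 h Ptpn12 alone passed (0.19), beside 3.95% of all genes higher and 2.01% lower.

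Early genes that growth factors induce rose in 7 of 14 tested cases at 1 h and 13 of 14 at 4 h, with 0 lower at either time, beside 3.95% and 11.9% of all genes higher. At 4 h the AP-1 gene Junb was higher by 2.12 ± 0.16 (SE), Srf by 0.74 ± 0.09, Ier2 by 1.28 ± 0.16 and Klf10 by 0.74 ± 0.12, with limma adjusted p of 3.25e-05, 0.000392, 0.000433 and 0.00163. The median of the list was 0.89 at 1 h and 1.13 at 4 h, beside -0.03 and -0.08 for all genes. By 16 h 3 of the 14 were higher and 0 lower, beside 6.84% and 12.5% of all genes. Every treated library received TGFβ, and whether any part of these rises came through PDGF was not tested. Between WT and null the early genes went both ways, 4 higher (Myc, 1.11, and Ier3, 0.87, first) and 5 lower (Mcl1, -0.40, and Egr3, -0.98, first) of 15. Over all genes 37.4% were higher and 30.1% lower in WT.

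**Figure D4:**
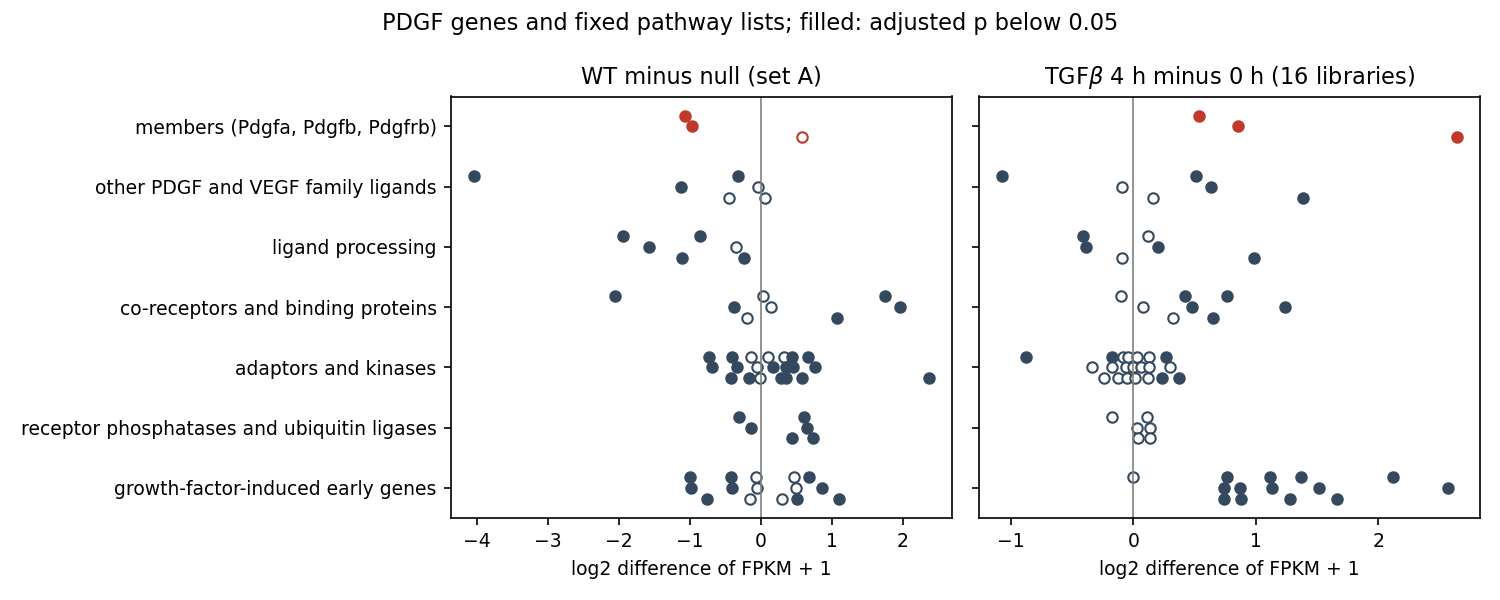
Log2 differences of FPKM + 1 for Pdgfa, Pdgfb and Pdgfrb (red) and for 6 pathway lists (dark), in WT minus null over set A and in 4 h minus 0 h over all libraries; each point is 1 gene, filled where the adjusted p is below 0.05, and vertical offsets only separate points. At 4 h Pdgfb (2.64) lies beyond the other ligands, and adaptors and kinases crowd around 0.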

How the data were processed

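Per the labels' protocols, poly(A)-selected, stranded RNA libraries were measured in the 16 samples. The authors deposited 1 table of FPKM values. Cufflinks 2.2.1, STAR 2.3.0e, CASAVA 1.8.2, SAMtools and build mm9 appear in the submitters' processing notes. For the annotation, and for how FPKM were normalized, the sources used here name nothing. Libraries summed to between 397019 and 481970 FPKM. Without counts, depth is unknown and no counting interval is given. Values were analysed as log2(FPKM + 1) for genes with a mean of at least 1 FPKM over a fit, with limma 3.58.1 (limma-trend, R 4.3.3) and Benjamini-Hochberg adjustment over all genes tested (threshold 0.05). Line differences had time as a block, and responses had the 5 series. The fits of WT minus null and of the 4 h response were run on simulated data with planted differences and independent noise per gene and library. Such data hold no effects shared within a library, so they cannot show how those act on the p-values here.

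Named genes were the members, Rnf111, the genes most like each member and, of each list, up to 4 with the smallest p in WT minus null and at 4 h; others were added to name small counts. Members and lists were chosen with earlier results of these data known. Levels in FPKM are as deposited. Alternatives were other pseudocounts, filters, scalings, variance models, blocks and sets, and each library left out in turn.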

Additional observations from a re-analysis of the deposited data

Results flagged for a closer look

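Among the 4 WT libraries, Pdgfrb in the 1 h library (9.02 FPKM) lay apart from the other three, which ran from 7.94 to 8.07 FPKM; its gap to the nearest library was 0.884 of the range of the group. Chance alone sets apart about 1 group in 20, and the 4 libraries are different times of TGFβ.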

How the results depend on the processing

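By replicate number no paired analysis was possible because the labels give no such numbers; libraries of different lines were matched by time instead, through the time block. Counting the 3 genes in the 3 line differences from null and the 3 responses against 0 h gave 18 results and 393 alternative values, of which 369 kept direction and side of the threshold, 20 no longer passed, 3 newly passed and 1 turned sign. Without the time block, where null has no 4 h library, Pdgfb in rvWT minus null was 0.20 (sign turned), and Pdgfa (-0.26), Pdgfrb (0.89), and in sim Pdgfa (-0.39), Pdgfb (-0.22) and Pdgfrb (0.86) did not pass. With a pseudocount of 5 Pdgfb in rvWT minus null was -0.27 and did not pass. With set A alone, which has fewer libraries, none of the 1 h (Pdgfa 0.85, Pdgfb 2.34, Pdgfrb 0.47) and 4 h responses (0.80, 2.55, 0.37) passed. Leaving out 1 library gave 0.40 to 0.90 for Pdgfb in WT minus null, 0.33 to 0.64 for Pdgfrb at 16 h, -0.50 to -0.26 for Pdgfb and -0.51 to -0.40 for Pdgfa in rvWT minus null, and 0.50 to 1.02 for Pdgfrb in sim minus null.

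Of differences that did not pass, these turned sign. With set A alone Pdgfa was -0.053 from 1 to 4 h and 0.021 from 4 to 16 h. With the 4 lines as block Pdgfa was -0.0052 from 1 to 4 h, 0.096 in the WT response difference at 16 h, 0.29 and 0.11 by Arkadia status at 4 and 16 h, and Pdgfrb 0.018 at 4 h. Median-ratio scaling gave 0.0037 for Pdgfa by Arkadia status at 4 h, and the shared WT term -0.028 for Pdgfa. Leaving out 1 library gave, by Arkadia status, -0.13 to 0.034 for Pdgfa at 1 h, -0.12 to 0.081 at 4 h, and for Pdgfrb -0.15 to 0.31, -0.27 to 0.17 and -0.36 to 0.17 at 1, 4 and 16 h. It gave -0.13 to 0.046 for Pdgfa and -0.21 to 0.018 for Pdgfrb from 4 to 16 h, and -0.083 to 0.098 for Pdgfrb in rvWT minus sim.

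Counts of genes called over the whole table moved more. The main counts and their ranges were 4230 (1946 to 4580) in rvWT minus null, 3807 (1581 to 4112) in sim minus null, 54 (1 to 93) in rvWT minus sim, and 658 (12 to 815), 4307 (16 to 4779) and 2139 (245 to 3026) at 1, 4 and 16 h, the lowest with set A alone for the times. They were 2453 (9 to 3166) from 1 to 4 h and 207 (6 to 657) from 4 to 16 h. For the response differences they were 5 (2 to 11), 44 (5 to 204) and 426 (69 to 749) by WT, and 1 (1 to 4), 4 (1 to 7) and 179 (5 to 708) by Arkadia status, at 1, 4 and 16 h. The cause was not tested. Depth is unknown, so what it limits cannot be stated.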
